A study of Mus musculus with 11 samples.

Results

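The Dppa (developmental pluripotency associated) genes Dppa2, Dppa3, Dppa4 and Dppa5a were followed by name through every table of a study of mouse embryonic stem (ES) cells. All 4 were present in the bulk table, which holds 12588 rows with 12585 different gene names, and in each of the 5 single-cell tables, which have 16836 genes in common. The shared name reflects a common pattern of expression: Dppa2 and Dppa4 are paralogues, and the others belong to different protein families.

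Bulk RNA-seq (Smart-seq2, about 1000 cells per library, line Rex1GFPd2, labelled wild type) compared 3 libraries from soft agarose microgels with 3 from tissue-culture plastic, all in 2i/LIF. 2i stands for inhibitors of the kinases MEK and GSK3, and with the cytokine LIF they keep ES cells naive, close to the cells of the early epiblast. Droplet single-cell sequencing (inDrop) gave 1 library per condition: E14 wild type in serum/LIF on plastic, E14 in 2i/LIF on plastic, E14 in serum/LIF in microgels, and lines with low and high overexpression of plakoglobin (Jup) in serum/LIF on plastic. Jup was driven by the constitutive CAG promoter, and neither the parent line nor the number of clones is given. Nothing in the labels says whether the bulk replicates came from separate cultures, so p-values measure the spread between these libraries, which may be technical. Single-cell differences rest on 1 library per condition and were not tested, and the 95% intervals given with them cover the error of counting alone.

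Dppa2 and Dppa4 are small chromatin proteins with a SAP DNA-binding domain that act as a pair. They keep the promoters of developmental genes free of DNA methylation and activate genes of the 2-cell embryo, including the Dux and Zscan4 families. Dppa3, also called Stella, is a maternal and germ-cell protein that limits DNA methylation by displacing Uhrf1, the cofactor of the maintenance methyltransferase Dnmt1. Dppa5a, also called Esg1, is a KH-domain RNA-binding protein of pluripotent and germ cells.

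In the GRCm38 assembly with GENCODE M21 annotation, Dppa4 (ENSMUSG00000058550, chr16:48283733-48294237, plus strand) lies 9670 bases upstream of Dppa2 (ENSMUSG00000072419, chr16:48303908-48319723, plus strand). Dppa3 (ENSMUSG00000046323, chr6:122626410-122630272, plus strand) lies within 200 kb of Gdf3, Apobec1, Nanog and Slc2a3. Dppa5a (ENSMUSG00000060461, chr9:78367052-78368177, minus strand) has Ooep, which encodes an oocyte KH-domain protein, within the same distance. None of the 4 gene bodies overlaps another annotated gene.

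Near-identical pseudogenes limit how reads of 2 members can be assigned. Dppa5b and Dppa5c on chromosome 9 are identical to each other over 348 bases, and match Dppa5a at 96.3% of 299 aligned positions, with a longest identical run of 104 bases. Dppa3-ps on the X chromosome matches Dppa3 at 98.2% of 451 positions. The coding stretches below, from GENCODE M21 transcripts, are shown because each holds some of the bases by which reads of a pair can be told apart, 5 of the 9 mismatches of Dppa5a with Dppa5b and 3 of the 8 of Dppa3 with Dppa3-ps. Capitals mark the differing bases.

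Dppa5a: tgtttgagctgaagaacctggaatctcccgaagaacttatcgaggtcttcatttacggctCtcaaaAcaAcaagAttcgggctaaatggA
Dppa5b: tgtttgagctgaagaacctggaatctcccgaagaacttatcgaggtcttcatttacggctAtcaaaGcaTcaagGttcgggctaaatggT
Dppa3: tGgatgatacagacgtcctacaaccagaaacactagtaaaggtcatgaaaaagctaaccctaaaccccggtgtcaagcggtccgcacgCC
Dppa3-ps: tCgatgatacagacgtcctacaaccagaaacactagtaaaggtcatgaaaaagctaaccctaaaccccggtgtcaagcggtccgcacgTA

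Counted from the first base printed, the differences of Dppa5b from Dppa5a in these stretches are C61A, A67G, A70T, A75G and A90T, and those of Dppa3-ps from Dppa3 are G2C, C89T and C90A. A read that falls wholly in the lower-case run of either pair fits both genes. Bulk values of Dppa3 and single-cell levels of Dppa5a are therefore also given with their copies added.

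The bulk libraries held 637235 to 2583256 recovered reads, and 112 to 2889 cells were kept per single-cell library. The median cell of a library held 1731.5 to 2465 UMIs (unique molecular identifiers, which count captured transcripts). No cell barcode was shared between libraries. All 4 ES cell markers (Pou5f1, Sox2, Nanog, Zfp42) were measured in bulk, where 0 of 8 fibroblast and 0 of 6 primitive endoderm markers were in the table. Levels are in CPM, a gene's UMIs scaled to the same total in every library. Jup stood at 36.7 CPM in wild type serum/LIF, 46.7 in wild type 2i/LIF, 37.9 under the label JupLow and 47.8 under the label JupHigh. It therefore bears out neither label clearly, and whether 3' reads count the transgene is not given in the sources used here. JupLow and JupHigh stand for the libraries so labelled throughout. The wild-type serum/LIF plastic library stood apart in 3 ways. Its table has no Sox2 column, Eef1a1 (a translation factor) stood at 4121 CPM against 685 to 978 in the other 4 libraries, and the 6 primitive endoderm markers summed to 229 CPM against 3.14 to 67.7 elsewhere. The 8 fibroblast markers summed to 43.1 CPM in this library and 29.9 in JupLow, against 12.7 in gel, 6.26 in JupHigh and 4.225 in 2i/LIF. Results on 2i/LIF are therefore also given against JupLow as a serum/LIF reference, and the part of these features in the results was not tested.

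Dppa2 fell in microgels while its paralogue and neighbour Dppa4 did not pass the test. The deposited bulk values of Dppa2 (reads divided by 1 factor per library) were 59.8, 60.2 and 83.8 in gel and 138, 137 and 131 on plastic. The groups did not overlap, and each gel library lay below each plastic library. The mean was 67.9 ± 13.8 (SD, n = 3) in gel and 135 ± 4.17 (SD, n = 3) on plastic, which gives -1.01 on the log2 scale (SE 0.153). The adjusted p was 7.86e-05 (limma across all tested genes with Benjamini-Hochberg adjustment).

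Dppa4 read 64.3, 52.8 and 93.4 in gel and 59.0, 56.7 and 62.2 on plastic. The plastic libraries lay close together and the gel libraries spread around them. Its log2 fold change was 0.20 (SE 0.189, 95% interval -0.20 to 0.60, limma adjusted p = 0.427), and -0.025 without gel replicate 3. Less RNA per cell and fewer cells expressing a gene cannot be told apart in bulk samples.

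Within a library the values of the pair can be set against each other. The ratio of Dppa2 to Dppa4 was 0.930, 1.14 and 0.897 in gel and 2.35, 2.41 and 2.10 on plastic. The groups did not overlap, with means of 0.989 ± 0.132 and 2.29 ± 0.166 (SD, n = 3 each). An exact two-sided permutation test gave p = 0.1, the smallest that 3 against 3 allows, and 0.15 after adjustment over the 6 pairs of members. Per kb of exonic length, the mean levels were 27.8 (Dppa2) and 42.2 (Dppa4) in gel and 55.3 and 35.7 on plastic.

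**Figure D1:**
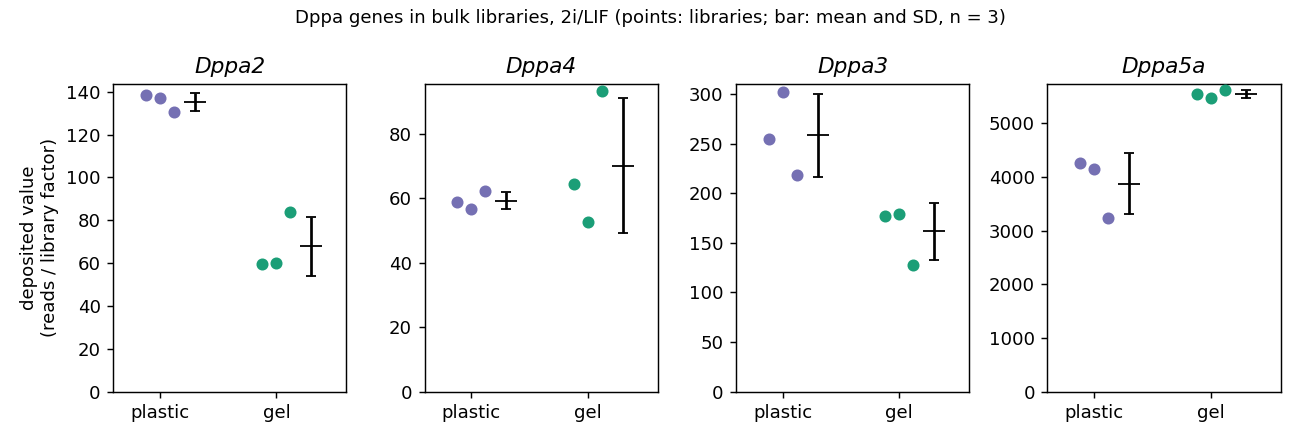
Deposited values (reads divided by the library's factor, linear axis from 0) of the 4 Dppa genes in 3 plastic and 3 gel libraries in 2i/LIF; points are libraries, and the black bar is the mean with SD. Gel lies wholly below plastic for Dppa2 and Dppa3 and wholly above it for Dppa5a, while the groups overlap for Dppa4.

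Dppa3 fell in microgels and Dppa5a rose. Dppa3 read 177, 179 and 128 in gel and 255, 302 and 219 on plastic, with no overlap. The means were 161 ± 29.1 and 258 ± 41.7 (SD, n = 3 each), or -0.68 on the log2 scale (SE 0.146, limma adjusted p = 0.00143). With its copy Dppa3-ps added, which made 16.3% to 23.4% of the sum in a library, the log2 fold change was -0.73 (limma adjusted p = 0.00104).

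Dppa5a read 5548, 5467 and 5620 in gel and 4262, 4145 and 3230 on plastic, again without overlap. Its log2 fold change was 0.53 (SE 0.0973, limma adjusted p = 0.000453), and 0.40 without plastic replicate 3, the shallowest and lowest library. It ranked 7th of all genes by mean deposited value in gel and 14th on plastic, and per kb its mean level was 8960 in gel and 6270 on plastic. Dppa5b and Dppa5c have no row in the bulk table.

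The test called 3 of the 4 members at an adjusted p under 0.05, against 36.9% of the 7878 genes tested (18.3% higher in gel and 18.6% lower). The groups did not overlap for 3 members, against 49.5% of all tested genes. Changes of this kind were thus common in the table, and the count of 3 is not a result about the members.

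Among the chosen lists, genes of DNA methylation rose in gel where they were called. Of 9 tested genes of the DNA methylation list, 5 rose in gel and 0 fell, with a median log2 fold change of 0.38 against -0.022 for all tested genes. Uhrf1, the target of Dppa3, rose by 0.77 and Dnmt1 by 0.73 (limma adjusted p = 7.53e-05 and 0.00311), as did Tet1, an enzyme that oxidises methylated cytosine (0.76, adjusted p = 0.00028). The 4 that did not pass went both ways. Dnmt3b, a de novo methyltransferase, gave 0.37 (limma adjusted p = 0.1) and Tet2 0.095 (0.692). Dnmt3a gave -1.15 (limma adjusted p = 0.0811) and Prdm14 -0.46 (0.0985).

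Called naive and general pluripotency genes went in both directions. Of 15 tested naive genes 7 rose in gel, among them Esrrb (1.56), Klf2 (2.08) and Klf4 (1.84), all transcription factors of the naive network, and 2 fell, namely Nanog (-0.34) and Zfp42 (-0.32). Of 7 tested general pluripotency genes 5 rose, among them Pou5f1 (1.31) and Sox2 (1.51), and Sall4 fell (-0.80).

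Genes of the 2-cell programme that Dppa2 and Dppa4 activate were sparse: 4 of 15 were in the table, 2 were tested and 0 were called. Zscan4c read 40.6, 0 and 0 in gel and 0.831, 50.1 and 12.1 on plastic. Single libraries were high in both groups.

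Of the tested genes of KH-domain proteins of the oocyte, Ooep rose in gel (68.5 ± 8.27 against 31.3 ± 7.03, SD, n = 3 each, log2 fold change 1.14, limma adjusted p = 0.000274). Tle6, a partner of Ooep in the maternal complex of the oocyte, fell (-2.33, adjusted p = 0.00215). Khdc3, a KH-domain gene of that complex, gave -0.35 (adjusted p = 0.134). Among germ-cell genes, Kit, the receptor of stem cell factor, rose (1.02) and Dazl, an RNA-binding protein of germ cells, fell (-0.97), with adjusted p of 1.46e-05 and 0.000801. Near Dppa3, 8 neighbours were tested: the pseudogenes Gm8430 and Gm10420 rose, Nanog fell (limma adjusted p = 0.0074), and the growth factor Gdf3 was among the 5 that did not pass (-0.23, adjusted p = 0.103).

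Among the single-cell libraries Dppa2 and Dppa4 were lowest in 2i/LIF. Dppa2 stood at 109 CPM in the library labelled JupLow, 106 in that labelled JupHigh, 104 in wild type serum/LIF on plastic, 84.7 in serum/LIF gel (20 UMIs) and 37.5 in 2i/LIF. Neighbours among the first 4 were within counting error of each other, and 2i/LIF lay below all 4. Against wild type serum/LIF the log2 ratio in 2i/LIF was -1.47 (-1.73 to -1.21), and against JupLow -1.53 (-1.77 to -1.30).

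Dppa4 stood at 175 CPM in wild type serum/LIF, 145 in JupLow, 131 in gel (31 UMIs), 127 in JupHigh and 53.2 in 2i/LIF. The log2 ratio of 2i/LIF was -1.72 (-1.93 to -1.51) against wild type serum/LIF and -1.45 (-1.64 to -1.25) against JupLow. JupHigh lay below wild type serum/LIF by -0.46 (-0.66 to -0.27). With TMM scaling, which raises every log2 ratio of that comparison by 0.28, it was -0.19 (-0.38 to 0.010), and Dppa2 in JupHigh then lay above wild type serum/LIF (0.30, 0.066 to 0.55).

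Dppa3 and Dppa5a went the other way, with 2i/LIF high. Dppa3 stood at 39.0 CPM in 2i/LIF (323 UMIs), 25.8 in JupHigh (111 UMIs), 18.1 in JupLow (52 UMIs), 8.47 in gel (2 UMIs) and 6.44 in wild type serum/LIF (13 UMIs). The gel library could not be told from either neighbour in this order at its depth. The 2i/LIF level was 6.05-fold that of wild type serum/LIF (3.49 to 11.5) and 2.16-fold that of JupLow (1.61 to 2.95). Dppa3-ps had at most 2 UMIs in each of the 4 libraries whose table lists it.

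Dppa5a stood at 920 CPM in JupHigh, 911 in 2i/LIF, 631 in gel, 489 in wild type serum/LIF and 428 in JupLow. JupHigh and 2i/LIF were within counting error of each other (log2 ratio 0.014, -0.042 to 0.070), and each other step in this order exceeded it. The last step, JupLow below wild type serum/LIF, was lost with TMM scaling (-0.020, -0.14 to 0.10) and reversed when every deposited barcode was used (0.092, 0.033 to 0.15). The 2i/LIF level was 1.87-fold that of wild type serum/LIF (1.75 to 2.0) and 2.13-fold that of JupLow (2.0 to 2.26). JupHigh was 2.15-fold JupLow (2.02 to 2.29) and 1.88-fold wild type serum/LIF (1.76 to 2.02). The copies Dppa5b and Dppa5c made 9.81% to 14.4% of the UMIs of the 3 genes together, with Dppa5b at 1.27 to 1.68 times the UMIs of Dppa5c despite their identical annotated sequences. The sum with copies was 1042 CPM in JupHigh, 1017 in 2i/LIF, 737 in gel, 550 in wild type serum/LIF and 475 in JupLow. All ratios given are of Dppa5a alone.

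**Figure D2:**
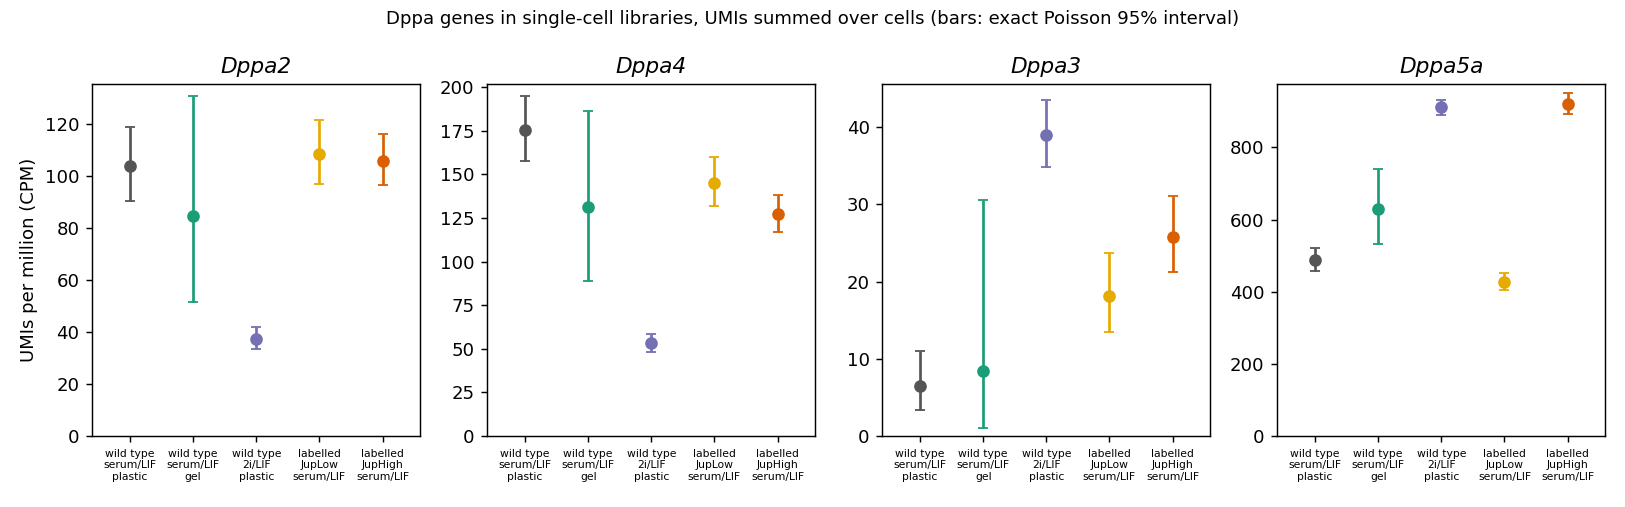
CPM (UMIs scaled to the same total per library, linear axis from 0) of the 4 Dppa genes in the 5 single-cell libraries, summed over cells of 1000 or more UMIs; bars are exact Poisson 95% intervals. The 2i/LIF library is the lowest of the 5 for Dppa2 and Dppa4 and the highest for Dppa3, and it is level with JupHigh for Dppa5a.

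The library labelled JupHigh thus combined 2 patterns. Its pooled Dppa5a was within counting error of the 2i/LIF level, which did not hold within classes of depth (log2 ratio -0.81 in cells of 1000 to under 2000 UMIs and 0.31 in cells of 2000 or more), and its Dppa3 was above wild type serum/LIF (log2 ratio 2.0, 1.17 to 2.95), though below 2i/LIF (0.660-fold, 0.527 to 0.822). Its Dppa2 and Dppa4 were near the serum/LIF levels, at 2.82-fold (2.44 to 3.27) and 2.39-fold (2.10 to 2.71) those in 2i/LIF. Dppa3 above wild type serum/LIF was not particular to JupHigh, since JupLow also lay above it (log2 ratio 1.49, 0.59 to 2.49). Set against JupLow, which shares its medium, JupHigh was higher in Dppa5a beyond counting error. Dppa3 (log2 ratio 0.51, 0.024 to 1.02) and Dppa4 (-0.19, -0.38 to -0.0050) cleared 0 by a narrow margin, and with every deposited barcode their intervals included 0 (0.084, -0.24 to 0.41, and -0.11, -0.25 to 0.030). The interval of Dppa2 included 0 (-0.037, -0.25 to 0.17).

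A size rule of 2-fold or more was applied to genes with a column for both libraries whose higher level was at least 20 CPM. Between wild type 2i/LIF and serum/LIF, 1 of 4 members (Dppa3) was higher and 2 (Dppa2, Dppa4) were lower, against 9.71% higher and 15% lower of 7470 genes, 24.7% in all. With JupLow as the reference, 2 of 4 (Dppa3, Dppa5a) were higher and 2 lower, against 8.1% and 11.5% of genes, 19.6% in all. Dppa5a also passed against wild type serum/LIF with TMM scaling (log2 ratio 1.15), as a mean over cells (1.13) and in cells of 1000 to under 2000 UMIs (1.49), so its call depends on the scaling, the cells and the reference. Between JupHigh and wild type serum/LIF, 1 of 4 (Dppa3) was higher and 0 lower, against 6.14% and 14.5% of genes, 20.7% in all, and with TMM scaling Dppa5a passed too (log2 ratio 1.19). Between JupHigh and JupLow, 1 of 4 (Dppa5a) was higher and 0 lower, against 2.63% and 8.4%, 11% in all. That call was lost with every deposited barcode (log2 ratio 0.42), in cells of 1000 to under 2000 UMIs (0.72) and as a mean over cells (0.94). Between JupHigh and 2i/LIF, 2 of 4 (Dppa2, Dppa4) were higher and 0 lower, against 3.59% and 6.47%, 10.1% in all. In gel against wild type serum/LIF, 0 of the 3 members that reached the minimum passed, with a background of 7.21% higher and 13.2% lower (20.4% in all). In JupLow against wild type serum/LIF it was 0 of 3 as well, with 4.17% and 7.02% (11.2% in all). Dppa3 was left out there by the minimum (18.1 CPM in JupLow), though JupLow was 2.8-fold wild type serum/LIF (1.51 to 5.61). Dppa3 reached 20 CPM only in 2i/LIF and JupHigh, so in comparisons of these with the other libraries it could only be placed as higher there, and the same holds for any listed gene that reached the minimum in 1 of the compared libraries. These comparisons share libraries and are not independent of each other.

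Gel against plastic was thus measured in both media. In serum/LIF single cells, Dppa5a was higher in gel than in wild type on plastic (log2 ratio 0.37, 0.11 to 0.62) and than in JupLow (0.56, 0.30 to 0.81). With every deposited barcode the first of these fell to 0.053 (-0.082 to 0.18). In cells of 1000 to under 2000 UMIs the intervals overlapped, at 655.5 CPM in gel (500 to 844), 592 in wild type on plastic (519 to 672) and 574 in JupLow (521 to 630). In cells of 2000 to under 4000 UMIs gel was higher, at 745 CPM (582 to 940) against 516 (469 to 566) and 400 (370 to 432). The intervals of Dppa2 (-0.30, -1.04 to 0.37), Dppa4 (-0.42, -1.0 to 0.11) and Dppa3 (0.39, -2.80 to 2.54) include 0, so no difference was detectable in the 112 cells. With every deposited barcode Dppa4 was lower in gel (-0.85, -1.24 to -0.48).

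The genes of the chosen lists gave the following in 2i/LIF against wild type serum/LIF. Of 13 naive pluripotency genes that reached 20 CPM in either library, 12 were 2-fold or more higher and 0 lower, but 3 of the 12 reached the minimum only in 2i/LIF. Of the 10 that reached it in both libraries, 9 were higher and 0 lower, against 245 higher and 287 lower of all 5438 such genes. Counted in the same way, 8 of 11 were higher and 0 lower in 2i/LIF against JupLow, beside 253 higher and 290 lower of all 5686 such genes. In JupHigh against JupLow 9 of 11 were higher and 0 lower, beside 75 higher and 190 lower of all 5725 such genes. The DNA methylation genes split: of 8 that reached 20 CPM in both libraries, 1 was higher in 2i/LIF and 3 lower, with Uhrf1 at 212 against 90.7 CPM and Dnmt3b at 150 against 554 CPM. Against JupLow 0 of 9 were higher and 3 lower, beside the same 253 higher and 290 lower of 5686 genes. In JupLow Uhrf1 stood at 135 and Dnmt3b at 647 CPM. The 4 genes of the 2-cell list that reached 20 CPM in JupHigh or JupLow did so only in JupHigh, so the minimum fixed their direction and their count is no support. Of them Zscan4f stood at 27.1 CPM in JupHigh against 3.47 in JupLow, while Dppa2 stood at 106 against 109 CPM and Dppa4 at 127 against 145 CPM.

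By the rule on likeness of profiles over the 5 libraries (root-mean-square difference of centred log2 levels among 4540 other genes), the 3 genes nearest to Dppa2 were Zfp462 (0.112), Scarb2 (0.125) and Lin28b (0.127). For Dppa4 they were Pfkl (0.116), Dstn (0.141) and Dppa2 itself (0.164), and for Dppa5a Tcea3 (0.120), Ciz1 (0.133) and its own copy Dppa5b (0.154). Dppa3 stayed under the 50 CPM the rule requires.

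The levels of Dppa5a and, in 2i/LIF, JupLow and JupHigh, of Dppa3 moved with the depth of the barcode. In wild type serum/LIF Dppa5a went from 961 CPM in barcodes under 500 UMIs to 404 CPM in those of 4000 or more, and in JupLow from 1184 to 301 CPM. The 2i/LIF library held 1662 CPM in cells of 1000 to under 2000 UMIs and 721 in those of 2000 to under 4000, where JupHigh held 945 and 896. JupHigh was therefore below 2i/LIF in the shallower cells (log2 ratio -0.81, -0.90 to -0.73) and above it in the deeper ones (0.31, 0.22 to 0.40), and the equality of their pooled levels depends on the mix of depths. Dppa3 in 2i/LIF stood at 65.0 CPM in barcodes of 500 to under 1000 UMIs (52.6 to 79.3) and 34.6 in those of 4000 or more (29.0 to 40.9). In JupLow it stood at 33.7 CPM in barcodes under 500 UMIs (25.8 to 43.2) and 18.1 in cells (13.5 to 23.7). In JupHigh it stood at 44.9 CPM in barcodes under 500 UMIs (29.3 to 65.8), 17.4 in those of 500 to under 1000 (9.54 to 29.3) and 25.8 in cells. For Dppa4 the intervals of the shallowest and deepest classes overlapped in each serum/LIF library, and in 2i/LIF the level went from 36.0 CPM in cells of 1000 to under 2000 UMIs to 62.8 in those of 4000 or more. Levels of Dppa2 in barcodes under 500 UMIs were 106 to 131 CPM in the 4 serum/LIF libraries, and the 2i/LIF library has 1 such barcode. What these barcodes contain was not tested.

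**Figure D3:**
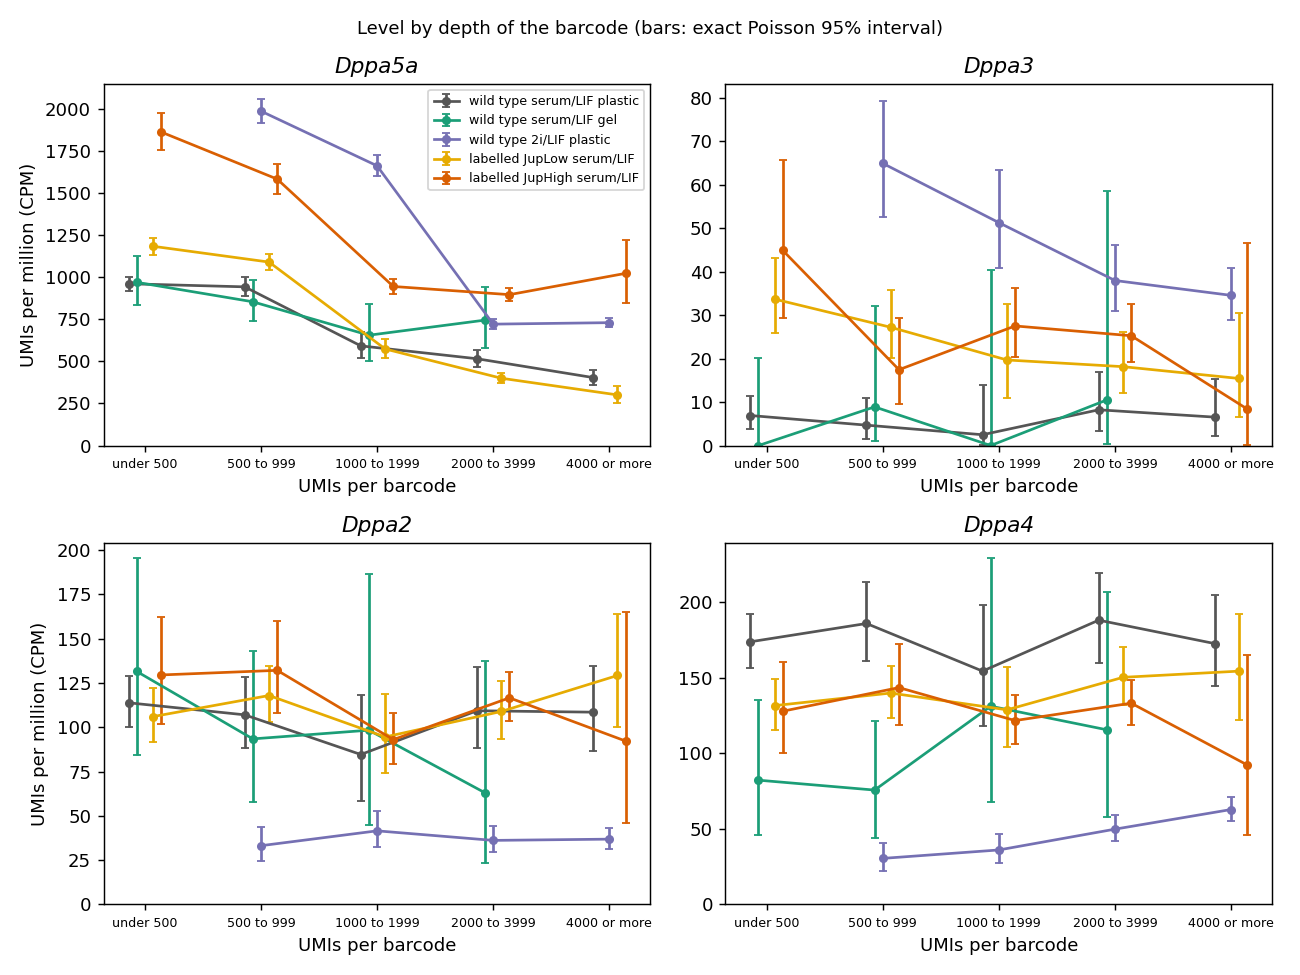
CPM (linear axis from 0) of the 4 Dppa genes in barcodes grouped by their UMIs, 1 line per single-cell library; bars are exact Poisson 95% intervals and groups under 20 barcodes are left out. Dppa5a is highest in the shallowest class plotted for each library, and Dppa4 in none. Dppa3 in 2i/LIF and in JupLow is lower in each deeper class.

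To compare cells, each was thinned to 1000 UMIs. A Dppa5a UMI was then found in 59.2% of 2889 cells in 2i/LIF (57.4 to 61.0, exact binomial), 55.5% of 2153 in JupHigh (53.3 to 57.6), 47.3% of 112 in gel (37.8 to 57.0), 37.8% of 725 in wild type serum/LIF (34.3 to 41.4) and 33.4% of 1200 in JupLow (30.7 to 36.2). Unthinned shares ran from 53.0% to 84.1%. Thinned to 2000 UMIs, over the cells that reach that depth, the order of the first pair turned, with 76.9% of 958 cells in JupHigh (74.1 to 79.6) and 69.3% of 1662 in 2i/LIF (67.0 to 71.5). In 2i/LIF the share lay below the 68.9% that Poisson counting gives at the same mean, so its UMIs were spread less evenly over cells than Poisson counting gives. Its Fano factor (variance over mean) was 1.62 against a median of 1.28 for 107 genes of similar mean. Thinning leaves in place the change of the Dppa5a level with depth, from 1662 CPM in cells of 1000 to under 2000 UMIs to 721 in those of 2000 to under 4000. The part of depth in this unevenness was not tested.

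Shares for the other members were small and close to those of Poisson counting. Dppa4 was seen in 15.2% of cells in wild type serum/LIF (12.6 to 18.0), 13.4% in JupLow, 11.8% in JupHigh and 4.74% in 2i/LIF (4.0 to 5.58). Dppa2 was seen in 10.8%, 9.42%, 9.52% and 4.15% of the cells of the same libraries. Dppa3 was seen in 0.414%, 1.75%, 2.42% and 4.22%, and its largest Fano factor was 1.23 in JupLow (median 0.986 for genes of similar mean). The share that free RNA alone gives was not measured.

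**Figure D4:**
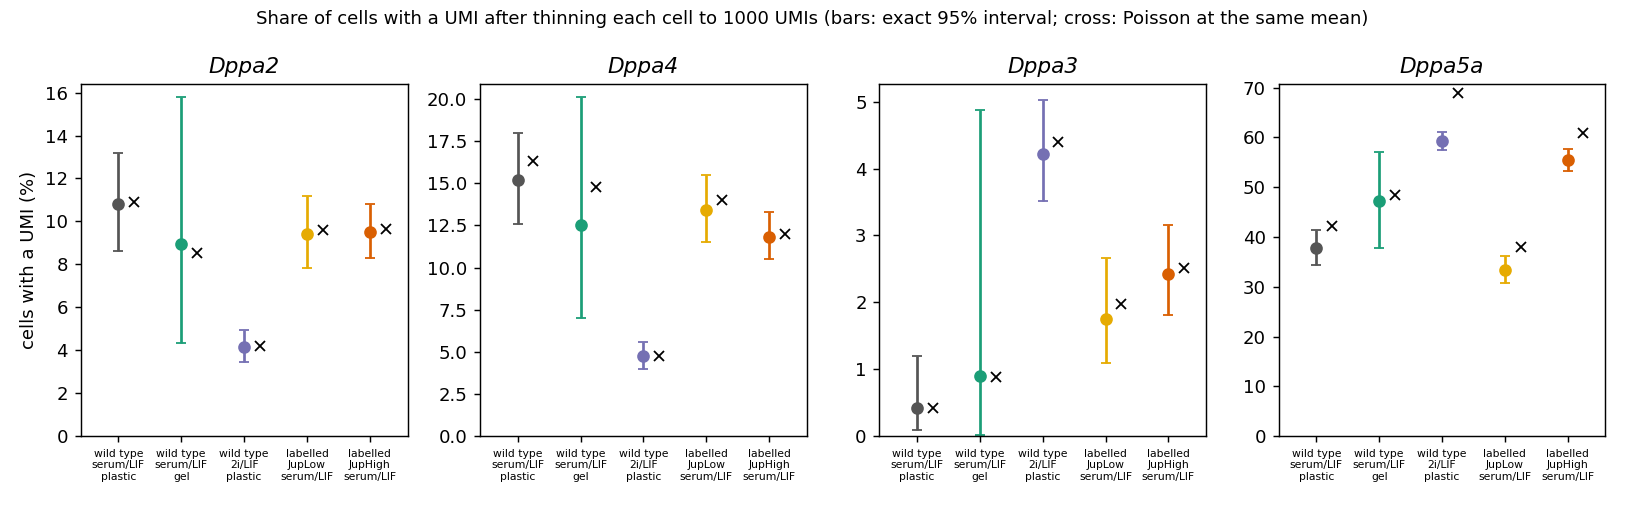
Share of cells with a UMI (percent, linear axis from 0) after thinning to 1000 UMIs, by library; bars are exact binomial 95% intervals and crosses are the share that Poisson counting gives at the same mean. Points of Dppa5a lie below their crosses in all 5 libraries, most so in 2i/LIF.

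Detection of the partners Dppa2 and Dppa4 in the same cell was also counted. They met in 19 cells of wild type serum/LIF against 11.8 if independent, 15 against 15.2 in JupLow, 27 against 24.3 in JupHigh and 3 against 5.69 in 2i/LIF. Correlations between members over cells lay near 0 in these 4 libraries, at 0.094 at most, and in counts this sparse they are no finding.

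Cells were also split by a UMI of 1 member and the pooled levels of up to 21 listed genes compared. Of 332 such ratios 59 had an interval above 0 and 11 below. The ratios are not independent, since pairs of members enter in both directions. Some rest on so few UMIs that their interval could not clear 0. Splitting JupHigh cells by Dppa5a gave the most, with 10 of 21 above: Nanog stood at 500 CPM in cells with Dppa5a and 367 in those without, and Zfp42 at 802 and 620. In 2i/LIF the neighbour and relative Ooep stood at 120 CPM in cells with Dppa5a and 52.6 in those without (log2 ratio 1.19, 0.77 to 1.62), while Nanog stood at 523 and 525 CPM. Of the 20 ratios of that split 2 had an interval above 0 and 3 below, those of Klf4 (-0.23), Dnmt3b (-0.40) and Slc2a3 (-0.38). The splits were not made within classes of depth, and Dppa5a in 2i/LIF was higher in shallower cells. The part of depth in these ratios was not tested. In JupLow, the 21 cells with a Dppa3 UMI held Zfp42 at 952 CPM against 215 in the rest (log2 ratio 2.15, 1.41 to 2.81). These genes were singled out after their values were seen.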

How the data were processed

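Bulk values are a deposited signal, counts that the authors divided by 1 factor per library, as judged from the values: 100% were whole reads within 0.01 of a read. Single-cell values are UMI counts as deposited. The submitters' processing notes name FastQC, STAR, featureCounts, DESeq2, Scanpy and the builds mm10 and GRCm38, without versions or order. Strand use is not given in the sources used here. Bulk groups were compared with limma 3.58.1 (R 4.3.3, intensity trend) on log2(value + 0.5) over 7878 genes passing edgeR's filter, at an adjusted p of 0.05. Fold changes on this scale understate those of low genes. edgeR 4.0.16 and DESeq2 1.42.0 on the recovered reads were alternatives, and edgeR with TMM called 3158 genes. In simulated reads, with 200 of 7878 genes changed 4-fold, 98% were called and 2.49% of calls were false. Changes as small as those of the members, and as many changed genes as were called here, were not simulated.

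Title and description number the second plastic library differently, and the title was followed. No pair of replicates agreed within sampling noise (chi-square per degree of freedom of 1.58 or more).

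Barcodes of 1000 or more UMIs were kept as cells, without a doublet caller. Barcodes with 8 G at each end, columns without a gene name (0.00509% to 0.499% of UMIs) and 1 line cut short in the gel table were left out. Ratios have exact conditional binomial intervals. Thinning drew UMIs without replacement and was tested on simulated cells. The 2-fold counts of listed and background genes cover genes with a column for both libraries compared. A gene with a column for only 1 of them is left out, however large its difference. A count of 0 was set to 3 counts before the 20 CPM minimum, in list medians and in the 2-fold counts of listed and background genes. In the gel library 3 counts are 12.7 CPM, so losses to 0 there are understated. Members, gene lists and the named-gene rule (the 4 members, listed genes, 200 kb neighbours and the 3 nearest profiles) were chosen with earlier results of these data known. Promoter and protein sequences were not used here.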

Additional observations from a re-analysis of the deposited data

Results flagged for a closer look

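Dppa3 gave values of opposite sign in the comparisons of gel with plastic in 2 media, without a movement being shown in the second. In 2i/LIF bulk libraries its log2 fold change was -0.68 and no gel library overlapped plastic. In serum/LIF single cells, with 1 library a side, the log2 ratio was 0.39, from 2 UMIs in gel and 13 on plastic, with a counting interval of -2.80 to 2.54. That sign turned with every deposited barcode (-0.015), as a mean over cells (-0.28) and against JupLow (-1.09). These comparisons differ in cell line (Rex1GFPd2 and E14) and assay as well as in medium, and the 3 cannot be told apart. The difference between them was not tested, and the single-cell direction is not determined at this depth.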

How the results depend on the processing

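In bulk, Dppa2, Dppa3 and Dppa5a kept direction and call under every alternative run, with log2 fold changes of -1.17 to -0.82, -0.86 to -0.52 and 0.40 to 0.60. Dppa4 was called under none (adjusted p 0.125 to 0.929). Leaving out 1 library gave -0.025 to 0.38 for Dppa4, reversed to -0.025 without gel replicate 3, and 2317 to 2785 calls against 2906, and DESeq2 gave 2188. Same-numbered libraries did not deviate together (r of -0.0522, 0.0159 and 0.0244), which gives no sign of pairing by number but cannot exclude it. A replicate block changed no call of a member and gave 2988 calls (adjusted p for Dppa2 0.000108, Dppa4 0.379, Dppa3 0.000257, Dppa5a 9.85e-05). Some single-cell log2 ratios moved beyond their counting interval, and the cause was not tested. With every deposited barcode, Dppa5a against wild type serum/LIF was 0.47 in 2i/LIF, 0.053 in gel, 0.092 in JupLow (reversed) and 0.52 in JupHigh, and JupHigh against JupLow was 0.42. With cells of 2000 UMIs or more, Dppa5a was 0.65 in 2i/LIF against wild type serum/LIF, 1.26 in JupHigh against JupLow and 0.31 in JupHigh against 2i/LIF. As the mean CPM over cells, Dppa5a against wild type serum/LIF was 1.13 in 2i/LIF and 0.81 in JupHigh. By the same measure JupHigh gave 0.94 against JupLow and -0.33 against 2i/LIF for Dppa5a, and 1.44 against 2i/LIF for Dppa4. With TMM scaling, ratios against wild type serum/LIF were -1.47 for Dppa4 and 1.15 for Dppa5a in 2i/LIF and -0.020 for Dppa5a in JupLow. In JupHigh they were 0.30 for Dppa2, -0.19 for Dppa4 and 1.19 for Dppa5a, and JupHigh against JupLow was 1.21 for Dppa5a. Depth classes were added after seeing the data. In cells of 1000 to under 2000 UMIs, 2i/LIF against wild type serum/LIF gave -1.03 for Dppa2, -2.1 for Dppa4 and 1.49 for Dppa5a. In these cells Dppa5a was -0.046 in JupLow and 0.67 in JupHigh against wild type serum/LIF, and 0.72 in JupHigh against JupLow. JupHigh against 2i/LIF gave 1.16 for Dppa2, 1.76 for Dppa4 and -0.81 for Dppa5a. In cells of 2000 to under 4000 UMIs, Dppa5a was 0.48 in 2i/LIF, -0.37 in JupLow and 0.80 in JupHigh against wild type serum/LIF, and 0.31 in JupHigh against 2i/LIF. With JupLow as the serum/LIF reference, added likewise, 2i/LIF gave -1.45 for Dppa4, 1.11 for Dppa3 and 1.09 for Dppa5a. With every deposited barcode, Dppa4 in gel against wild type serum/LIF was -0.85 (-1.24 to -0.48), within the interval of the reported value. The depth classes were not run for Dppa3 against wild type serum/LIF, where a class held too few UMIs. Of 40 shares of cells recomputed without thinning or at 2000 UMIs, 33 moved. The gel single-cell library, with 112 cells, sets the widest intervals, and Dppa3 in wild type serum/LIF rests on 2 UMIs in gel and 13 on plastic.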
